A study of Mus musculus with 20 samples.

Results

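Maz and 7 other genes that encode zinc-finger factors of G-rich or GC-box DNA (Patz1, Vezf1, Zfp148, Zfp281, Zfp263, Zfp467 and Sp1) were followed in peak lists from chromatin immunoprecipitation with sequencing (ChIP-seq). The rule for the set named the genes and used no peak values, although it was written with earlier results of these data known, and they are 8 of the 21938 protein-coding genes of the GENCODE annotation. Each was taken with 20 kb before its start and 20 kb after its end on mouse build mm10, which gave 545 kb in all. These regions held 79 of the 136043 peaks of 12 lists, and where peaks of different lists that overlap are joined they formed 32 sites.

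The lists came from E14 mouse embryonic stem cells grown with LIF and 2i inhibitors. In all of them CTCF carried an auxin-inducible degron, by which added auxin has the protein degraded. WT cells were untreated degron cells with intact Maz, and ΔCTCF cells were the same cells given auxin for 2 days. ΔMAZ cells were degron cells with a Maz knockout and no auxin, and ΔCTCF/ΔMAZ cells were the knockout cells given auxin for 2 days. All knockout libraries used here bear the same mark, B2, in their titles, and whether that is a single clone is not stated there. Antibodies to CTCF, MAZ and RAD21 gave 1 list each in each of the 4 conditions. The other 8 of the 20 samples were not analysed here. With 1 list per group there is no replicate check, no test was run, and every difference below is between single libraries.

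CTCF is a zinc-finger protein that halts cohesin, the ring complex that extrudes chromatin loops and of which RAD21 is a subunit. MAZ (Myc-associated zinc finger protein), PATZ1 (also called MAZ-related factor), VEZF1, ZFP148, ZFP281, ZFP263, ZFP467 and SP1 bind G-rich or GC-rich DNA through arrays of C2H2 zinc fingers, and many of their sites lie in promoters. The question addressed at these genes is where MAZ, CTCF and cohesin sit on the genes that encode this set of factors when CTCF, MAZ or both are removed.

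The DNA under the summits, the points of highest read pileup, shows the kinds of site met here. The 100 bases around a summit were read from GRCm38.p6, the RefSeq assembly with the mm10 chromosomes, on the plus strand. The motifs below were searched on both strands: GGGAGGG (MAZ core), GGGCGG (GC box), and AGGGGGC or AGGTGGC (CTCF core). Capitals mark the motif named on each line. The first 2 windows are the MAZ summits upstream of Maz itself, and both lie between genes. The next 3 are MAZ summits with a MAZ core, between genes upstream of Zfp281 and in introns of Sp1 and Patz1.
Maz promoter, MAZ in WT, chr7:127027387-127027486, GC box: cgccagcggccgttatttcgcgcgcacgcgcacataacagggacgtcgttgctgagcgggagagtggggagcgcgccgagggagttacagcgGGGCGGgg
Maz promoter, MAZ in ΔCTCF, chr7:127027217-127027316, GC box: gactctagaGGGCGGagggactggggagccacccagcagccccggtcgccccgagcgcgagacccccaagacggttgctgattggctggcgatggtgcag
Zfp281 promoter, MAZ in ΔCTCF, chr1:136624761-136624860, MAZ core: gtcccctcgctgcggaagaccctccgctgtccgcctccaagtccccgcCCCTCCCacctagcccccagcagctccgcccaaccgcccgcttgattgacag
Sp1 promoter, MAZ in WT, chr15:102406201-102406300, MAZ core: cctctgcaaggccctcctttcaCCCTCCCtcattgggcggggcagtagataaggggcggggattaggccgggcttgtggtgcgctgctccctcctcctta
Patz1 intron, MAZ in WT, chr11:3293044-3293143, MAZ core: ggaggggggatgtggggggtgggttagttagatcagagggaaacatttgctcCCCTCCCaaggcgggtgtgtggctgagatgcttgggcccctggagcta

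The next 3 sequences are CTCF or RAD21 summits. The first lies downstream of Patz1 in introns of 2 other gene records, Gm11944 and Gm12592, and carried strong CTCF and RAD21 peaks. The 30 bases from the Patz1 promoter, in an untranslated region, hold the CTCF core of the CTCF summit window of WT, which also held 1 MAZ core and 1 GC box and lies under the MAZ peaks of this promoter. The last lies between genes upstream of Zfp281, under the RAD21 summit of ΔCTCF/ΔMAZ, and holds none of the 3 motifs.
Patz1 downstream site, CTCF in WT, chr11:3314196-3314295, CTCF core: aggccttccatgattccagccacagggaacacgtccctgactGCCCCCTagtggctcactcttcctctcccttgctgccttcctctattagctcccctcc
Patz1 promoter, CTCF in WT, chr11:3290267-3290296, CTCF core: ggcgggaggggAGGTGGCagctgcgtttgc
Zfp281 upstream site, RAD21 in ΔCTCF/ΔMAZ, chr1:136613506-136613605, none of the motifs: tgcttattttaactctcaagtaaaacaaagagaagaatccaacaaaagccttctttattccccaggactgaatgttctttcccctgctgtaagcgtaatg

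Both Maz summit windows held 1 GC box and no MAZ core, and the Zfp281 window held 1 MAZ core and 3 GC boxes, with 2 bases shared between the kinds of motif. Across the regions, a MAZ core was in 3 of 11 MAZ windows of WT and 6 of 14 of ΔCTCF, beside 32.1% and 28.0% of all summit windows of those lists. A GC box was in 6 of 11 and 9 of 14, beside 55.8% and 49.3%. The CTCF core was in 3 of 11 CTCF windows of WT, beside 29.1% of the whole list. The 17 RAD21 windows of ΔCTCF held a MAZ core in 2, a GC box in 3 and a CTCF core in 1, beside 5.76%, 12.5% and 16.1% of that list.

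RefSeq promoter windows on GRCm38.p6, which span 300 bases around a start and lie mostly upstream of it, matched all 8 genes by symbol with 11 starts. A GC box was in 10 of these 11 windows, beside 35.7% of 32851 windows of all genes, and a MAZ core in 8, beside 22.0%. The CTCF core was in 5 of 11, beside 16.0%. The GC content of the 11 windows ran from 55.7% to 87.3%, and the median of all windows was 52.7%. The 2 Maz windows held 4 and 2 matches to the MAZ core and 4 and 5 GC boxes. The Zfp263 window held 1 MAZ core and 3 GC boxes, although no list had a peak there.

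Fold enrichment is the read pileup at the summit over the local background, each with 1 read added. A promoter peak is one whose summit lies within 1 kb of a transcription start site (TSS) of the gene, and distances below are from the nearest TSS of that gene, negative upstream. Lists differed in depth. By the depth index, the lowest background of a list per base of its smallest peak, RAD21 ΔCTCF was 2.18 times as deep as RAD21 WT, 1.69 times as deep as ΔMAZ and 2.34 times as deep as ΔCTCF/ΔMAZ. MAZ WT was 2.65 times as deep as MAZ ΔCTCF. CTCF ΔCTCF/ΔMAZ was 1.81 times as deep as CTCF ΔCTCF. Fold enrichments of different lists are therefore set side by side and are not on a common scale.

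MAZ had a promoter peak at 6 of the 8 genes in WT (Maz, Patz1, Vezf1, Zfp281, Zfp467 and Sp1), beside 21% of all protein-coding genes. In ΔCTCF the count was again 6, with Zfp148 in and Vezf1 out, beside 21.7%. MAZ promoter peaks in both of these lists were called at 5 genes, beside 15.7% of all genes. The knockout lists serve as the check of the antibody and the label. They held 33 MAZ peaks each, none in the regions of the 8 genes, and were shallower, by an index that is uncertain for these lists, with MAZ WT 2.90 times as deep as ΔMAZ and 3.42 times as deep as ΔCTCF/ΔMAZ. Scaled to ΔMAZ, 5 of the 11 MAZ peaks of WT in the regions passed, at Maz, Patz1 and Sp1. Scaled to ΔCTCF/ΔMAZ, 5 of the 14 of ΔCTCF passed. The limit to pass was the lowest −log10 p of the target list, 7.43 in ΔMAZ and 9.63 in ΔCTCF/ΔMAZ. In MAZ WT and MAZ ΔCTCF the lowest values were 4.28 and 4.14. With 33 peaks in a list the limit rests on few peaks as well as on depth. These counts therefore cannot decide at which sites a loss was detectable. Of all genes, 0.0319% had a MAZ promoter peak in ΔMAZ and 0.0319% in ΔCTCF/ΔMAZ.

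Patz1 was the only 1 of the 8 genes with a CTCF promoter peak in WT, beside 8.99% of all genes, and in ΔMAZ, beside 8.83%. None of the 8 had one in ΔCTCF, beside 1.28%, and Maz alone had them in ΔCTCF/ΔMAZ, beside 1.36%. RAD21 was called at the Patz1 promoter alone in WT, beside 6.98%, and in ΔMAZ, beside 9.05%. In ΔCTCF it was called instead at the promoters of Maz, Zfp148 and Zfp281, beside 18%, and in ΔCTCF/ΔMAZ at none, beside 6.09%. The same 3 promoters had a RAD21 peak in ΔCTCF and none in WT, beside 13.7% of all genes.

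**Figure D1:**
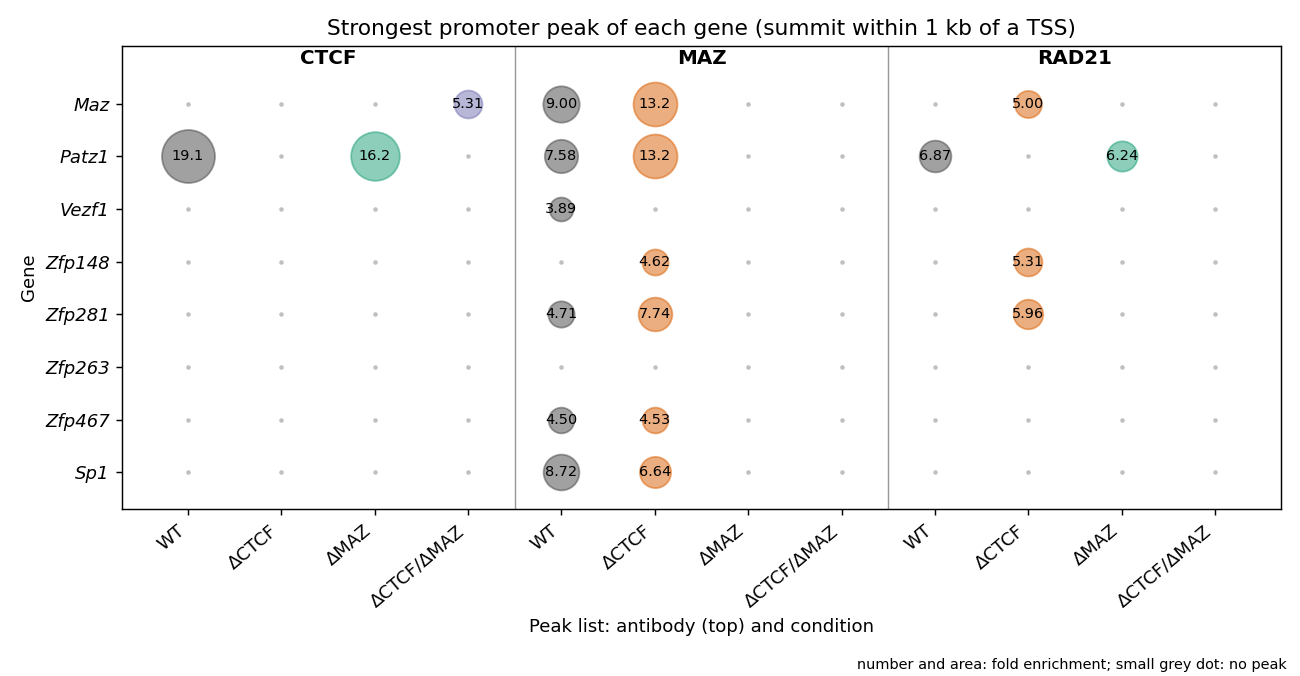
Strongest promoter peak of each gene (rows) in each of the 12 peak lists (columns, grouped by antibody). Circle area and the number give the fold enrichment, colours give the condition, and small grey dots stand for no called peak. MAZ peaks fill 6 genes in WT and 6 in ΔCTCF, RAD21 peaks are at Patz1 in WT and at Maz, Zfp148 and Zfp281 in ΔCTCF, and Zfp263 is empty throughout.

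Of the 6 genes with a MAZ promoter peak in ΔCTCF, 3 also had a RAD21 promoter peak in ΔCTCF, beside 36.8% of the 4767 such genes. None of the 3 genes with a RAD21 promoter peak in ΔCTCF had one in ΔCTCF/ΔMAZ, beside 24.8% of 3939 genes. The depth of the ΔCTCF/ΔMAZ list bears on this count. When pileup and background of ΔCTCF were scaled down to its depth, 3 of the 6 RAD21 promoter peaks still passed the lowest −log10 p of that list, 1 at each of Maz, Zfp148 and Zfp281. Scaled to the depth of WT, 3 of the 6 passed as well, at the same 3 genes. Of all RAD21 peaks of ΔCTCF, at promoters or not, 71.4% passed at the depth of ΔCTCF/ΔMAZ and 80.2% at that of WT.

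Maz (ENSMUSG00000030678.7, chr7:127022130-127027037, minus strand) encodes the protein removed in the knockout. It carried a MAZ peak at its own promoter in WT, with a summit at −413, a fold enrichment of 9.0 and 43 reads at the summit (exact Poisson 95% interval 31.1 to 57.9). In ΔCTCF the MAZ summit lay at −243, with a fold enrichment of 13.2 and 33 reads (22.7 to 46.3), and a second, weaker peak lay at +231 in an intron with 4.64 and 11 reads. The WT peak was 1458 bp wide and overlapped both peaks of ΔCTCF, so neither is a site without a MAZ peak in WT. The strong peaks stood at the 93.0 percentile of the WT list and the 97.0 percentile of the ΔCTCF list by fold enrichment. No MAZ peak was called there in ΔMAZ or ΔCTCF/ΔMAZ. According to the methods, the knockout was made by genome editing with a guide RNA against the Maz locus. The DNA of this locus was thus edited in both knockout conditions, and an effect of that on the calls here was not tested.

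RAD21 at the Maz promoter was called in ΔCTCF alone, as 3 peaks. The strongest lay at +99 in an exon, with a fold enrichment of 5.0 and 20 reads (12.2 to 30.9). The others lay at −284 between genes with 4.05 and at −706 in an intron of Kif22, a kinesin gene, with 3.10, each with 16 reads. Scaled to the depth of WT, the peak at +99 passed and the other 2 did not. All 3 overlapped the MAZ peaks of ΔCTCF.

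CTCF peaks in the Maz gene were weak, with 8 to 11 reads each, and the peaks called differed between the single lists. In WT, CTCF peaks lay at +3196 in an intron (7.32, 10 reads) and at +1055 in an exon (5.68, 9 reads), and in ΔMAZ one lay at +1027 in the same place (7.12, 11 reads). ΔCTCF had none. ΔCTCF/ΔMAZ had 2, at +953 (4.81) and +66 (5.31), both in an exon and both with 8 reads (3.45 to 15.8). These ranked 2527 and 2490 of 2570 peaks in that list, and neither passed when scaled to the depth of the ΔCTCF list. RAD21 of ΔMAZ had 1 peak in the gene body, at +1174 in an intron (4.86, 13 reads), which overlapped the CTCF peak there.

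The Maz region is dense, with 6 other protein-coding gene records in reach. Its strongest CTCF site lay 9.4 kb past the Maz TSS at the promoter of Pagr1a, with a CTCF fold enrichment of 15.3 in WT and 16.2 in ΔMAZ. RAD21 was called at that site in WT (6.64, 15 reads), ΔMAZ (4.66, 14 reads) and ΔCTCF (4.01, 18 reads), and not in ΔCTCF/ΔMAZ. In each of the first 3 lists the peak would still have passed at the depth of the ΔCTCF/ΔMAZ list.

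**Figure D2:**
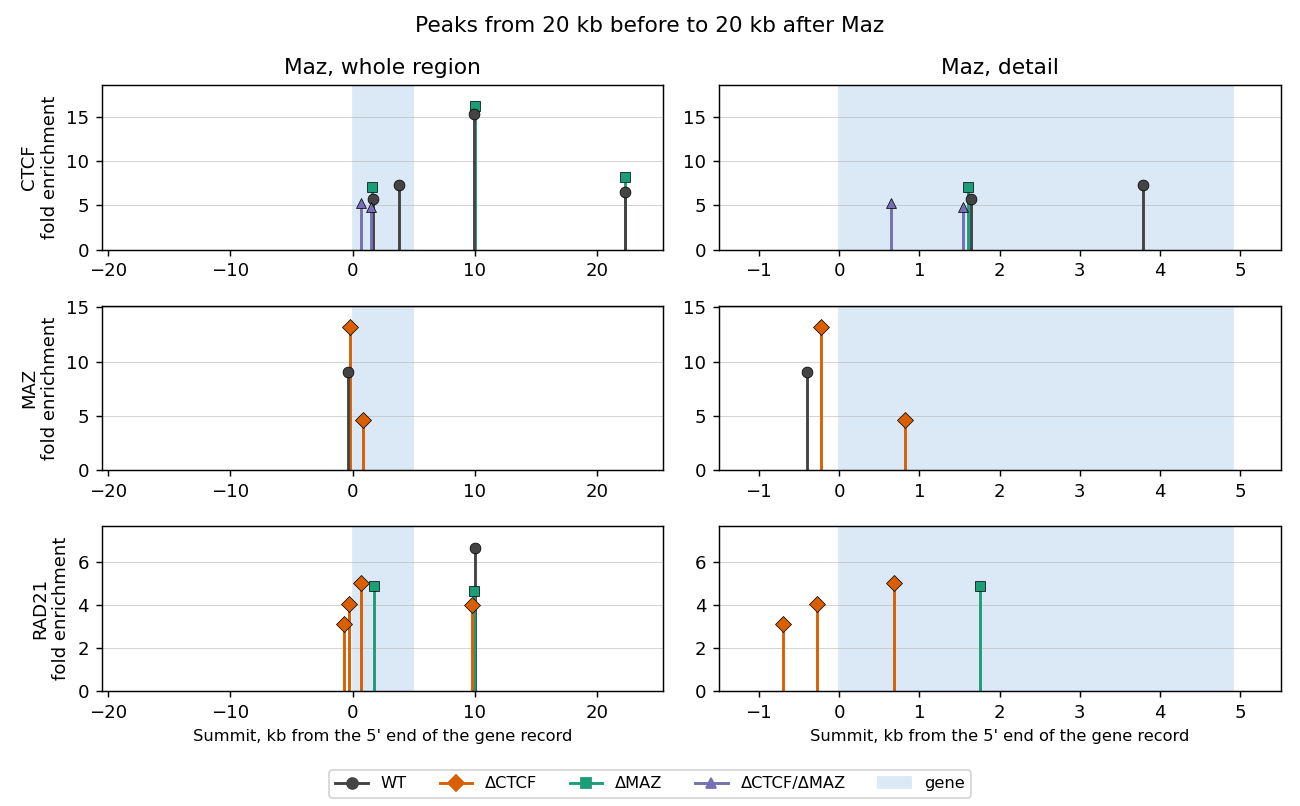
Peaks around Maz, as distance of the summit from the 5' end of the gene record in kb (horizontal) against fold enrichment (vertical), with rows for CTCF, MAZ and RAD21, markers and colours for the condition, and the gene shaded. The left column shows the whole region and the right column the gene alone: the MAZ summit of WT lies just upstream of the gene, those of ΔCTCF lie just upstream and just inside it, and each of the 3 RAD21 peaks of ΔCTCF near the promoter overlaps a MAZ peak of ΔCTCF.

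Patz1 (ENSMUSG00000020453.17, chr11:3288874-3309083, plus strand) was the one gene where all 3 proteins were called at a promoter in WT. CTCF had a fold enrichment of 19.1 in WT (30 reads, 20.2 to 42.8) and 16.2 in ΔMAZ (24 reads, 15.4 to 35.7). RAD21 had 6.87 in WT (16 reads) and 6.24 in ΔMAZ (17 reads), and MAZ had 7.58 in WT (40 reads) and 13.2 in ΔCTCF (34 reads). The summits lay in a Patz1 untranslated region, all of them more than 1 kb from the 5' end of the gene record, so that they count as promoter peaks through a further annotated TSS and would not with that end as the only TSS. The MAZ peak was present in ΔCTCF, where neither CTCF nor RAD21 was called at this promoter.

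RAD21 of ΔCTCF was called instead inside the Patz1 gene, at +1822 (3.77, 15 reads) and +2688 (3.46, 18 reads). Both are intronic and both overlapped MAZ peaks. MAZ there had fold enrichments of 7.07 and 6.96 in WT and 5.10 and 5.73 in ΔCTCF. These RAD21 peaks were weak, at the 14.6 and 7.81 percentiles of their list, and neither passed when scaled to the depth of WT or of ΔCTCF/ΔMAZ. Downstream of the gene, at 23.8 kb past the TSS, CTCF had 23.8 in WT and 22.0 in ΔMAZ. RAD21 had 13.4 and 11.9 there with 30 reads in each, and neither protein was called in ΔCTCF or ΔCTCF/ΔMAZ.

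Vezf1 (ENSMUSG00000018377.10, chr11:88068279-88084729, plus strand) encodes a factor known for a part in blood vessel development. Its largest peaks lay 9.0 kb upstream, at an exon of the lincRNA Gm15892. RAD21 there had a fold enrichment of 24.3 in WT (55 reads, 41.4 to 71.6), 17.0 in ΔMAZ (43 reads, 31.1 to 57.9) and 4.53 in ΔCTCF (18 reads, 10.7 to 28.4), and was not called in ΔCTCF/ΔMAZ. CTCF had 20.6 in WT and 11.1 in ΔMAZ and was called in neither auxin list. This was the highest RAD21 value of the 8 regions in WT and in ΔMAZ.

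A further CTCF site upstream of Vezf1 had 15.3 in WT and 8.31 in ΔMAZ, with no RAD21 peak. At the Vezf1 promoter, MAZ was called in WT alone, at −198 with 3.89 and 18 reads, and this peak did not pass when scaled to the depth of MAZ ΔCTCF. RAD21 of ΔCTCF lay just outside the promoter limit, at +1009 in an intron, with 4.05 and 16 reads, and did not pass when scaled to the depth of WT or of ΔCTCF/ΔMAZ. MAZ was also called in both WT (4.91) and ΔCTCF (6.97) in an intron of Cuedc1, which lies downstream of Vezf1.

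**Figure D3:**
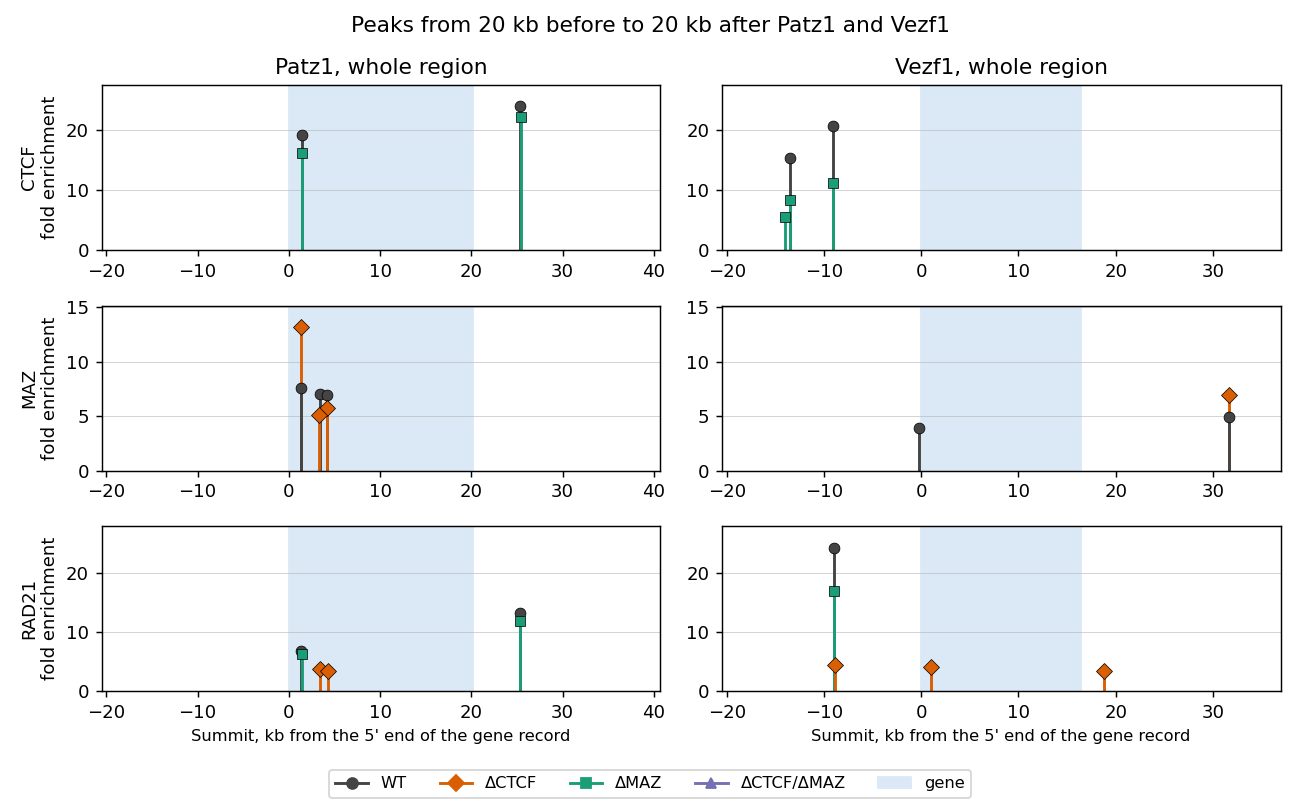
Peaks around Patz1 (left) and Vezf1 (right), as distance of the summit from the 5' end of the gene record in kb against fold enrichment, with rows for CTCF, MAZ and RAD21 and the gene shaded. The tall CTCF and RAD21 markers of WT and ΔMAZ downstream of Patz1 and upstream of Vezf1 have no marker of ΔCTCF/ΔMAZ beside them.

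Zfp148 (ENSMUSG00000022811.17, chr16:33380836-33504363, plus strand) and Zfp281 (ENSMUSG00000041483.14, chr1:136624901-136630053, plus strand) encode closely related factors, and ZFP281 is known for its part in embryonic stem cells. Neither gene had a CTCF peak in any list within 20 kb. At the Zfp148 promoter both MAZ (4.62 at +1, 17 reads) and RAD21 (5.31 at −181, 22 reads, 13.8 to 33.3) were called in ΔCTCF alone. The RAD21 summit there lies in an exon of 1700007L15Rik, a lncRNA that starts in the other direction, 72 bp from its TSS.

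The other RAD21 peaks of ΔCTCF around Zfp148 lay between genes upstream (3.67, 16 reads) and beyond the gene near Slc12a8, a transporter gene (3.89, 4.6 and 3.5). Near the Slc12a8 start, RAD21 was also called in ΔMAZ (5.34, 13 reads) and MAZ in ΔCTCF (5.34, 14 reads). The strongest flank peak was of MAZ, 9.8 kb upstream, with 6.40 in ΔCTCF and 4.56 in WT. In all, 5 of 5 RAD21 peaks of ΔCTCF in the Zfp148 region had no RAD21 peak of WT, beside 55.9% of the whole list, and 3 of the 5 overlapped a MAZ peak of ΔCTCF, beside 17.7% of all such peaks. Scaled to the depth of WT, 3 of the 5 passed, beside 80.2% of the list. Of these 3, 2 overlapped a MAZ peak of ΔCTCF, beside 18% of all such peaks scaled alike.

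At the Zfp281 promoter, MAZ was called in WT at −163 (4.71, 22 reads, 13.8 to 33.3) and in ΔCTCF at −90 (7.74, 19 reads, 11.4 to 29.7). RAD21 was called in ΔCTCF alone, at −238 (5.96, 24 reads, 15.4 to 35.7) and at +788 in an exon (3.57, 14 reads). The summit at −238 lies 13 bp from the TSS of the lincRNA Platr23. The peak at −238 was the highest RAD21 fold enrichment of ΔCTCF in the 8 regions and passed at the depth of WT and of ΔCTCF/ΔMAZ, and the peak at +788 passed at neither.

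The one RAD21 peak of ΔCTCF/ΔMAZ in the 8 regions lay upstream of Zfp281, at −11345, with 5.93 and 12 reads (6.2 to 21). A RAD21 peak of ΔCTCF overlapped it, with its summit at −11551, 4.87 and 33 reads (22.7 to 46.3). No MAZ or CTCF peak of any list lay at this site.

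Sp1 (ENSMUSG00000001280.13, chr15:102406143-102436404, plus strand) encodes the general GC-box activator. Among the MAZ peaks of WT in the regions, the one at its promoter had the highest pileup, with 44 reads (32.0 to 59.1) beside 43 at Maz. Its fold enrichment was 8.72, with the summit at −82. In ΔCTCF MAZ was called at +307 with 6.64 and 17 reads, in a peak that lay wholly within the 790 bp of the WT peak. MAZ of ΔCTCF was called once more upstream of the gene with 6.58 and 16 reads. No RAD21 peak was called at the Sp1 promoter in any list. CTCF had an intronic peak in WT (6.37) and ΔMAZ (7.15), and a strong site past the end of the gene, near Amhr2, with 23.6 in WT and 19.4 in ΔMAZ. RAD21 joined it there with 7.17 and 5.77, in the same 2 conditions only.

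**Figure D4:**
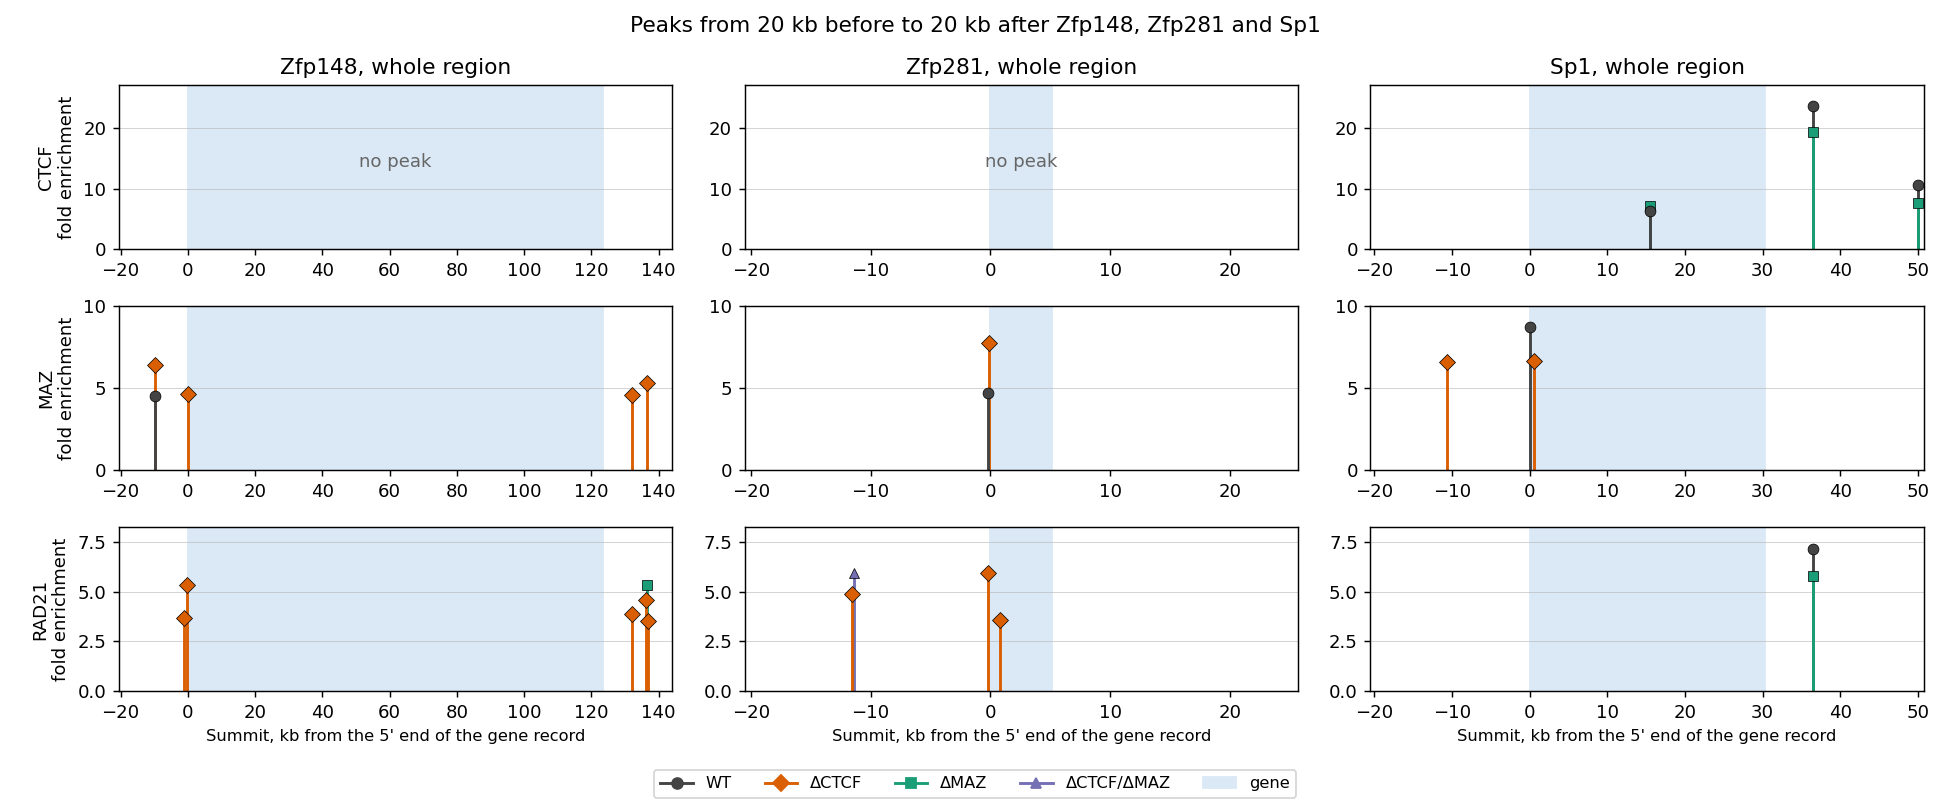
Peaks around Zfp148, Zfp281 and Sp1, as distance of the summit from the 5' end of the gene record in kb against fold enrichment, with rows for CTCF, MAZ and RAD21 and the gene shaded. Zfp148 and Zfp281 show no CTCF peak and RAD21 in auxin or ΔMAZ lists, while Sp1 shows MAZ at its start and CTCF with RAD21 past its end.

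Zfp467 (ENSMUSG00000068551.12, chr6:48427697-48445825, minus strand) had MAZ peaks alone. In WT they lay at −143 (4.50, 21 reads) and +418 (3.24, 24 reads), and in ΔCTCF at −102 (4.53, 15 reads), all within introns. All of these summits lay more than 1 kb from the 5' end of the gene record. They count as promoter peaks through a further annotated TSS and would not with that end as the only TSS. Zfp263 (ENSMUSG00000022529.11, chr16:3744093-3750790, plus strand), whose human counterpart binds G-rich sites, had no peak of any list within 20 kb, as did 21.3% of all protein-coding genes. The nearest peak to Zfp263 in any list was a RAD21 peak of WT 88.9 kb past its end.

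Counting all peaks of the regions, MAZ had 14 in ΔCTCF, of 6759 in the list (0.207%), and 11 in WT, of 6265 (0.176%). From the WT list, 9 of these 11 overlapped one of ΔCTCF (81.8%, Wilson 95% interval 52.3 to 94.9), beside 66.3% of the whole list. With a reciprocal overlap of 50%, 5 of the 11 did (45.5%), beside 56.4% of the list. At 1 bp of overlap, the other 2 were the peaks of Vezf1 at −198 and Zfp467 at +418, the only MAZ peaks of WT in the regions that did not pass at the depth of ΔCTCF.

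CTCF had 11 peaks in WT, of 26394 (0.0417%), and 11 in ΔMAZ, of 26053 (0.0422%). It had 0 of 2381 in ΔCTCF and 2 of 2570 in ΔCTCF/ΔMAZ (0.0778%), a larger share of a much shorter list. None of the 11 of WT was called in ΔCTCF (interval 0 to 25.9%), beside 8.83% of the list, and all 11 would have passed at that depth. In ΔMAZ 10 of the 11 of WT were called, beside 85.5%, and the exception was the intronic Maz peak at +3196. Of the 11 of ΔMAZ, 1 was called in ΔCTCF/ΔMAZ, beside 9.72%, and it was the exonic Maz peak.

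RAD21 peaks numbered 5 of 20371 in WT (0.0245%) and 7 of 20872 in ΔMAZ (0.0335%). There were 17 of 17912 in ΔCTCF (0.0949%) and 1 of 6400 in ΔCTCF/ΔMAZ (0.0156%), the shortest RAD21 list. The 5 of WT included 2 called in ΔCTCF, beside 38.9%, at Pagr1a and upstream of Vezf1. All 5 were called in ΔMAZ, beside 83.5%. Of the 7 of ΔMAZ none was called in ΔCTCF/ΔMAZ (interval 0 to 35.4%), beside 22.4%, although all 7 passed when scaled to that depth. Of the 17 of ΔCTCF, 1 was called in ΔCTCF/ΔMAZ, beside 29.5%, and 7 passed when scaled to that depth, beside 71.4% of the list.

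The RAD21 peaks of the regions had lower fold enrichments in ΔCTCF than in WT, as did the whole lists, with medians of 4.85 and 10.0. They ran from 3.10 to 5.96 with a median of 4.01 in ΔCTCF, and from 6.64 to 24.3 with a median of 7.17 in WT. The groups did not overlap in fold enrichment. Their raw pileups did, with 14 to 33 reads in ΔCTCF and 15 to 55 in WT, but the ΔCTCF list was 2.18 times as deep. Scaled to the depth of WT, the pileups of ΔCTCF ran from 6.42 to 15.1.

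**Figure D5:**
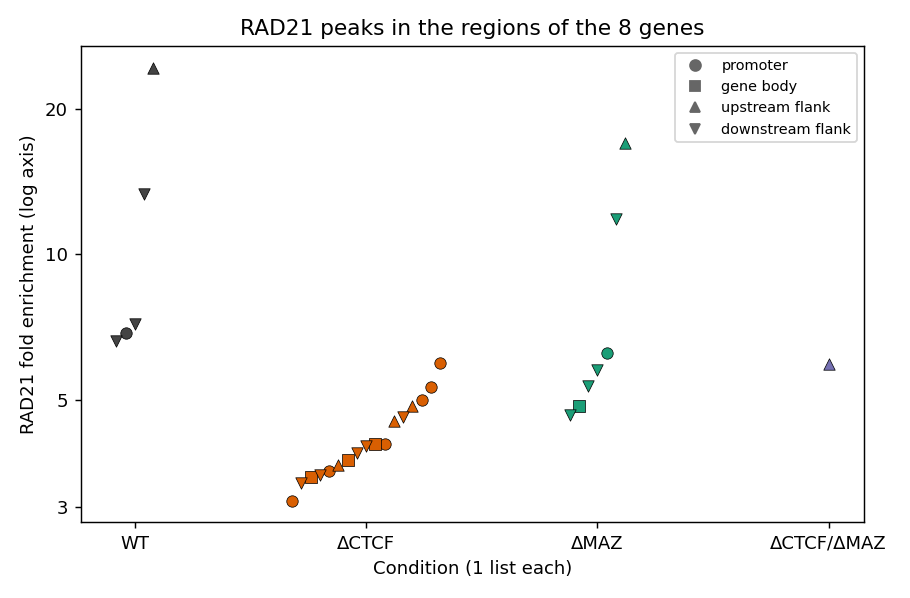
Fold enrichment (log axis) of every RAD21 peak in the regions of the 8 genes, by condition, with 1 list each and the marker shape for the part of the region. The 17 peaks of ΔCTCF sit between 3.10 and 5.96, below the 5 of WT, and 1 peak was called in ΔCTCF/ΔMAZ.

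RAD21 peaks of ΔCTCF with no RAD21 peak of WT, here called relocalized, were 15 of the 17, beside 55.9% of the whole list. Of these 15, 9 overlapped a MAZ peak of ΔCTCF (interval 35.7 to 80.2%), beside 17.7%, and 6 a MAZ peak of WT, beside 15.6%. None overlapped a CTCF peak of WT (interval 0 to 20.4%), beside 3.06%. The 9 with MAZ were 3 at Maz, 2 at Patz1, 3 at Zfp148 and 1 at Zfp281, while the 2 at Vezf1 had none. The 3 at Maz lay in 1 joined site, and 2 of the 3 at Zfp148 lay near Slc12a8. The intervals treat the peaks as independent, which those at Maz are not. One of the 15 was called in ΔCTCF/ΔMAZ, beside 10.8%, and 1 in ΔMAZ, beside 10.4%. The peak called in ΔCTCF/ΔMAZ was 1 of 6 relocalized peaks (16.7%) scaled to the depth of WT, beside 13.4% of the list scaled alike, and 1 of 5 (20%) scaled to that of ΔCTCF/ΔMAZ, beside 15%.

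The count of relocalized peaks moved with depth, and the number of them with a MAZ peak moved with depth and with the way overlap was counted. Scaled to the depth of RAD21 WT, 8 of the 17 peaks remained, beside 80.2% of the list. Of these 8, 6 were relocalized, beside 47.9%, and 4 of the 6 overlapped a MAZ peak of ΔCTCF, beside 18%. Where a reciprocal overlap of 50% was asked, 2 of 16 relocalized peaks overlapped a MAZ peak (12.5%), beside 10.8% of the list under the same rule.

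Promoter peaks at 3 lists of other genes were counted alike. Of 25 other SP and KLF family genes, 15 had a MAZ promoter peak in WT and 12 in ΔCTCF, beside 21% and 21.7% of all genes. RAD21 was called at 13 of the 25 promoters in ΔCTCF, beside 18%, at 5 in WT, beside 6.98%, at 8 in ΔMAZ, beside 9.05%, and at 4 in ΔCTCF/ΔMAZ, beside 6.09%, which put the share of these 25 above that of all genes in each of the 4 conditions. Klf4, a pluripotency factor, had MAZ at 14.9 in WT and 18.6 in ΔCTCF and RAD21 at 5.96 in ΔCTCF alone. Sp3 had MAZ at 11.6 and 10.5, and RAD21 at 3.92 in WT and 5.24 in ΔCTCF/ΔMAZ. Sp2 resembled Patz1 in that all 3 proteins were called at its promoter in WT, CTCF at 18.5, MAZ at 4.07 and RAD21 at 24.6, and unlike Patz1 it had a RAD21 promoter peak in ΔCTCF, at 3.97, in a list 2.18 times as deep as WT.

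Of 20 other zinc-finger genes of G-rich or boundary sites, 11 had a MAZ promoter peak in WT and 11 in ΔCTCF, beside 21% and 21.7% of all genes. RAD21 had 2 in WT and 6 in ΔCTCF, beside 6.98% and 18%, and 3 in ΔMAZ and 2 in ΔCTCF/ΔMAZ, beside 9.05% and 6.09%. Ctcf itself had MAZ at its promoter, at 10.8 in WT and 7.74 in ΔCTCF, and no CTCF or RAD21 promoter peak in any list. Yy1 had MAZ at 9.41 and 12 and RAD21 in ΔCTCF/ΔMAZ alone, at 5.49. Zfp341 and Egr1 had all 3 proteins in WT and, as at Patz1, RAD21 in WT and ΔMAZ but in neither auxin list. Of 11 genes of cohesin and its regulators, 6 had a CTCF promoter peak in WT and 7 a MAZ peak, beside 8.99% and 21%. RAD21 had 4 in WT, 4 in ΔCTCF and 3 in ΔCTCF/ΔMAZ, beside 6.98%, 18% and 6.09%. Smc3, Stag1, Stag2 and Pds5b had all 3 proteins in WT. Pds5b had CTCF in all 4 lists, at 40.7 in WT, 24.2 in ΔMAZ, 10.8 in ΔCTCF and 8.49 in ΔCTCF/ΔMAZ. RAD21 was called there in all 4 as well, at 31.9 in WT and 33.3 in ΔMAZ without auxin, and at 21.4 in ΔCTCF and 19.2 in ΔCTCF/ΔMAZ with it.

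Genes with a promoter pattern most like that of Maz were ranked over the 12 lists by the distance between their percentile ranks of promoter fold enrichment. The nearest were Dcaf6 and Mpc2, with the same values and a distance of 5.15 percentile points, then Uri1 (5.52), Lrrc8d (5.89) and Znrf3 (6.43). Each had MAZ in WT and ΔCTCF and RAD21 in ΔCTCF alone. At Dcaf6 and Mpc2 MAZ had 10.8 and 14.7 and RAD21 5.0, and at Maz the values were 9.0, 13.2 and 5.0. None of the 5 had the CTCF promoter peaks that Maz had in ΔCTCF/ΔMAZ.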

How the data were processed

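ChIP-seq of CTCF, MAZ and RAD21 was measured in 4 conditions of mouse embryonic stem cells, and groups were taken from the titles. According to the methods, the authors mapped reads to mm10 with Bowtie2, filtered out duplicates and reads of low quality with SAMtools, and ran MACS on each library apart for narrow peaks. Drosophila spike-in chromatin was added to the samples. Whether it or an input entered the lists is not given in the sources used here. Fold enrichment was deposited as the ratio of pileup to local background. The deposited −log10 p-value and −log10 q-value describe a peak in its own library, and the deposited summit offset gave its position. Read totals are not in the lists. Whole-number pileups and backgrounds were solved from fold enrichment and −log10 p within 0.001 for every peak, and the procedure was tested on simulated data.

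Genes and starts came from the basic set of GENCODE vM21. A peak was called in another list where they overlapped by at least 1 bp. Shares carry Wilson and pileups exact Poisson 95% intervals, for counting error only. For depth, pileup and background were multiplied by the ratio of depth indices and kept where the resulting −log10 p was at least the lowest one listed at the smaller depth. The knockout MAZ lists have peaks as narrow as 49 bp, so their index is uncertain. All 8 genes were described. Peaks at promoters and in genes were given by position, and of each flank at most the 3 strongest. Genes of the lists of other factors were named where all 3 proteins had a promoter peak in WT, or for Ctcf, Sp3, Klf4 and Yy1. The genes and lists were chosen with earlier results of these data known. Alternatives changed the promoter distance, flank, overlap, q limit, starts and depth. Python 3.11.15, pandas 2.3.3, numpy 2.4.6, scipy 1.17.1 and pysam 0.24.0 were used.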

Additional observations from a re-analysis of the deposited data

How the results depend on the processing

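No paired analysis was possible because no result comes from a test and every group is a single list, so no replicate could be left out either. The 37 results had 135 alternative values, of which 115 stayed within 1.5 times the count or within the 95% interval of the share, and 20 moved. These intervals are wide, and within them the relocalized RAD21 peaks called in ΔCTCF/ΔMAZ went from 6.67% to 20% with the stricter q and to 16.7% or 20% when scaled for depth, those with a MAZ peak from 60% to 40% with the stricter q, the RAD21 peaks of ΔCTCF called in ΔCTCF/ΔMAZ from 5.88% to 16.7%, and the RAD21 peaks of WT called in ΔCTCF from 40% to 20%, also with reciprocal overlap. With a −log10 q of at least 5, the RAD21 peaks of ΔCTCF fell to 6, the CTCF peaks of ΔCTCF/ΔMAZ to 0, with 0 genes holding a CTCF promoter peak there, and the CTCF peaks of ΔMAZ called in ΔCTCF/ΔMAZ to 0%. With a flank of 10 kb there were 7 CTCF peaks in ΔMAZ and 0 RAD21 peaks in ΔCTCF/ΔMAZ. With summits up to 2.5 kb from a TSS, 2 genes had a CTCF promoter peak in WT and 2 in ΔMAZ, and RAD21 had 5 in ΔCTCF and 2 in ΔMAZ. With only the 5' end of the gene record as TSS, Patz1 dropped out, which left 0 genes for CTCF in WT and ΔMAZ and 0 for RAD21 in WT and ΔMAZ. For MAZ, Zfp467 dropped out as well, which left 4 genes in WT and 4 in ΔCTCF, in place of 6 and 6. With a reciprocal overlap of 50%, 45.5% of the MAZ peaks of WT were called in ΔCTCF and 12.5% of relocalized RAD21 peaks had a MAZ peak, while CTCF peaks of ΔMAZ, RAD21 peaks of ΔCTCF and relocalized peaks called in ΔCTCF/ΔMAZ all fell to 0%. With lists of equal length, 0% of the RAD21 peaks of ΔCTCF were called in ΔCTCF/ΔMAZ. The pileups behind most of the ΔCTCF RAD21 peaks were under 25 reads, so single peaks near the limit of calling are uncertain, and a peak that was not called may still hold signal.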
